A study of Mus musculus with 4 samples.

Results

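The 29 genes described here encode the enzymes that build cholesterol from acetyl-CoA and the proteins that set the pace of that synthesis or handle its product. They were listed by name from the textbook pathway and ordered along it: 8 enzymes from acetyl-CoA to squalene, 10 enzymes from squalene to cholesterol, 5 genes of the SREBP system, and 6 receptor, transport, turnover and storage genes. Some enzymes and receptors of the pathway are not analysed here. The 29 genes were among 35427 to which transcripts could be matched, and all 29 were among the 14907 that passed a filter on low counts and are called measured.

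The samples were hippocampal RNA from mice of strain C57BL/6J, 4 months old, of the line P2RY12CreER x Rpl22HA. In such a RiboTag line a Cre recombinase under the promoter of the microglial gene P2ry12 turns on a tagged ribosomal protein, and tagged ribosomes are then pulled down with the mRNA they carry. All mice were fear conditioned. Control mice then slept for 6 h while sleep-deprived mice stayed awake over those 6 h, and each sample held material pooled from 2 mice. Sleep deprivation is given as the treatment of all 4 samples in the labels, so the groups were taken from the sample titles. No sample without fear conditioning and no input RNA was used here.

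The 4 files held between 14431647 and 14877011 estimated reads. Within a group the 2 files were closer than sampling noise. Divided by its degrees of freedom, the chi-square of their counts was 0.334 in control and 0.226 in sleep-deprived, against 69.2 to 69.4 between groups. They were therefore counted as 1 library per group, and the series description itself calls the samples technical replicates. The files of the 2 groups did not overlap for 96.2% of measured genes. A gap between the files at a single gene is thus only described below and is no support for its difference. With 1 library per group no p-value can be given for the difference between groups. Each ratio below is the sleep-deprived library over the control library in CPM (reads scaled to library size), followed by an exact 95% interval that covers counting error only and says nothing about differences between mice. A gene was called at a difference of at least 2-fold whose interval excluded 1, and counts at 1.5-fold are given as a second, looser rule.

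Adult brain makes nearly all of its own cholesterol, because lipoprotein cholesterol does not cross the blood-brain barrier, and glia are the main producers. Synthesis is controlled by SREBP transcription factors, which are held in the endoplasmic reticulum with their escort SCAP by INSIG proteins while sterol is plentiful. When sterol runs low, SCAP carries SREBP to the Golgi, where it is cut, and the released part enters the nucleus and switches on the genes of synthesis and also Insig1. The liver X receptors Nr1h2 and Nr1h3 sense oxidised sterols instead and switch on genes of sterol export.

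No member reached 2-fold in either direction, where 9.91% of measured genes did. At 1.5-fold, 5 of 29 members (17.2%) were lower in the sleep-deprived library, namely Hmgcs1, Fdft1, Sqle, Msmo1 and Insig1, beside 13.2% of measured genes. Scap, Nr1h2 and Nr1h3 (10.3%) were higher at 1.5-fold, beside 12.8% of measured genes. In all, 8 of 29 passed 1.5-fold in either direction, beside 25.9% of measured genes. The interval excluded 1 at any fold for 21 of 29 members, 14 below and 7 above, beside 62% of measured genes, 29.8% below and 32.1% above. The shares at 1.5-fold lie near the background, while the share with an interval below 1 was higher among the members. Whether an interval excludes 1 also depends on read depth, which was not matched here or in the counts by step below. Members had 133 to 1598 reads a library, while the filter for measured genes used a minimum count of 10. The median log2 ratio was −0.22 over the 18 enzymes and −0.003 over the other 11 genes, against 0.002 over all measured genes, whose quartiles were −0.37 and 0.36. Summed over the 18 enzymes, the level was 524 and 523 CPM in the control files and 453 and 452 CPM in the sleep-deprived files, a ratio of 0.865 (0.837 to 0.894). That summed ratio depends on the unit, since the authors' TPM, summed in the same way, gave 1.11. In TPM the median log2 ratio of all measured genes was itself 0.22. The TPM ratios in this report are given without taking out that shift.

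**Figure D1:**
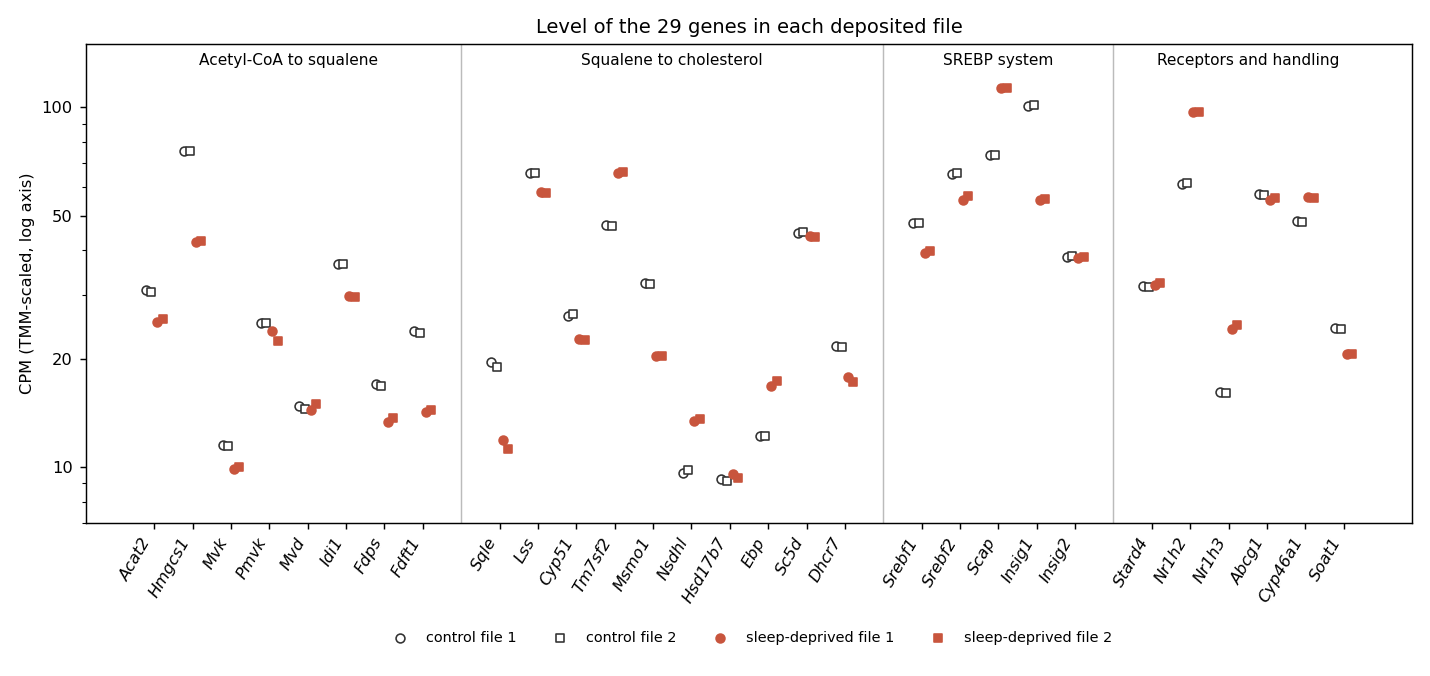
Level of each of the 29 genes in each of the 4 deposited files, in CPM on a log axis, with open symbols for control and filled symbols for sleep-deprived files, ordered by role. The 2 files of a group lie within 6.68% of each other for every gene, and Hmgcs1 and Insig1 show the widest downward gap between the groups.

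Promoter sequences are shown for 3 of these genes, picked by their ratios as examples of a lower enzyme, a lower regulator and a higher receptor. They come from RefSeq on GRCm38.p6 and run 5′ to 3′ on the strand of the gene, with bases that an annotated transcript covers left out. The lines show Hmgcs1 at chr13:119690101-119690350 on the plus strand, Insig1 at chr5:28071162-28071362 on the plus strand and Nr1h2 at chr7:44553966-44554215 on the minus strand. Capitals mark a sterol element, searched as TCACNCCAC or its reverse complement GTGGNGTGA, and a CCAAT box, searched as CCAAT or ATTGG. These motifs share no bases in the lines below.
Hmgcs1: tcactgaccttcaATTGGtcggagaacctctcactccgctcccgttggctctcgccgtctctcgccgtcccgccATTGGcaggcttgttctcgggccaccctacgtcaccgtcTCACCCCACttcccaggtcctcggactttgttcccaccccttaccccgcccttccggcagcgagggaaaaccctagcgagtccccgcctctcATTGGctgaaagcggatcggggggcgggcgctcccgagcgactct
Insig1: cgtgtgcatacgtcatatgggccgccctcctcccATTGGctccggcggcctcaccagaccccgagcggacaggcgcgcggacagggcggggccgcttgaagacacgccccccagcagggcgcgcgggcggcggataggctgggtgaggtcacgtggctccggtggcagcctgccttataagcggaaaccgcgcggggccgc
Nr1h2: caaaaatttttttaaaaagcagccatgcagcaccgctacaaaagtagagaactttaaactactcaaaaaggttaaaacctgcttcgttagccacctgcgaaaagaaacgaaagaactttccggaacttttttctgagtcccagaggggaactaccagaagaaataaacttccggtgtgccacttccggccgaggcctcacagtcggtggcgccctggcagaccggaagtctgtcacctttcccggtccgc
The Hmgcs1 promoter held the sterol element at position −137 from the RefSeq start, together with CCAAT boxes on either side of it. The Insig1 stretch held a single CCAAT box, and the Nr1h2 stretch held neither motif. RefSeq windows of 300 bases, from 250 before to 50 after the start, were available for 24 of the 29 members. In them the sterol element was found in 1 of 24 members, against 1.44% of the 27025 genes with an entry. A CCAAT box was found in 20 of the 24, all but Acat2, Nr1h2, Nr1h3 and Scap, against 41.1% of genes. Among those with a box were Tm7sf2, Ebp, Nsdhl and Cyp46a1, whose ratios were above 1, while Acat2 was below 1. Whether motifs and ratios go together was not tested. A match of letters is a description and not a mapped binding site.

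Between acetyl-CoA and squalene, 7 of 8 enzymes had a ratio below 1, and the interval excluded 1 on the lower side for 5 of them, beside 29.8% of measured genes. The median log2 ratio was −0.28. Their summed level was 235 CPM in each control file and 173 CPM in each sleep-deprived file, a ratio of 0.737 (0.700 to 0.777). Hmgcs1 (ENSMUSG00000093930, chromosome 13, 119690379 to 119708260, plus strand), which makes HMG-CoA from acetoacetyl-CoA, had the lowest ratio of the 18 enzymes in CPM. It stood at 75.4 and 75.8 CPM in the control files and at 42.3 and 42.4 CPM in the sleep-deprived files. The groups did not overlap, and the ratio was 0.560 (0.506 to 0.619), a log2 ratio of −0.84. With an offset for transcript length the ratio of Hmgcs1 was 0.642. In TPM it was 0.742, short of 1.5-fold with the shift of all measured genes in TPM left in. Under both, Sqle, Msmo1 and Fdft1 were lower than Hmgcs1.

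Fdft1 (ENSMUSG00000021273, chromosome 14, 63145150 to 63179578, minus strand) encodes squalene synthase, which joins farnesyl diphosphate into squalene and so commits it to sterols. Its level was 23.9 and 23.6 CPM in control and 14.2 and 14.4 CPM in sleep-deprived files. Both control files lay above both sleep-deprived files, with a ratio of 0.603 (0.505 to 0.719). In TPM the ratio was 0.700, short of 1.5-fold with the shift of all measured genes left in. Of the 31-base stretches of Fdft1 transcripts, 14.3% also occur in another gene. Gm6781 shares more of them than any other gene, and the summed ratio with Gm6781 was 0.601. Exons of Fdft1 overlap those of Ctsb on the opposite strand over 18.3% of their length. Whether the authors counted by strand was not stated in the labels, and Ctsb itself had a ratio of 0.826.

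The other early enzymes differed less. Acat2, which condenses acetyl-CoA to acetoacetyl-CoA, stood at 31.1 and 30.7 CPM in control against 25.3 and 25.8 CPM, a ratio of 0.829 (0.720 to 0.953). It shares 43.7% of its 31-base stretches with other genes, more with Acat3 than with any other. The ratio of the summed reads of Acat2 and Acat3 was 0.818 (0.721 to 0.928). The isopentenyl isomerase Idi1 went from 36.7 and 36.6 CPM to 29.9 and 29.7 CPM, a ratio of 0.813 (0.714 to 0.924). Farnesyl diphosphate synthase, Fdps, was measured at 16.97 and 16.8 CPM against 13.3 and 13.6 CPM, a ratio of 0.799 (0.659 to 0.968). In TPM the levels of Idi1 (21.3 in both libraries) and Fdps (27.16 and 26.99) barely differed, while the median log2 ratio of all measured genes was 0.22. The kinases and the decarboxylase that turn mevalonate into isopentenyl diphosphate had intervals that include 1: Mvk at 0.863 (0.686 to 1.08), Pmvk at 0.920 (0.791 to 1.07) and Mvd at 1.01 (0.830 to 1.23), or 0.967 by library totals. For Mvd the files of the groups overlapped, at 14.4 and 14.7 CPM in control and 14.4 and 14.99 CPM in sleep-deprived.

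**Figure D2:**
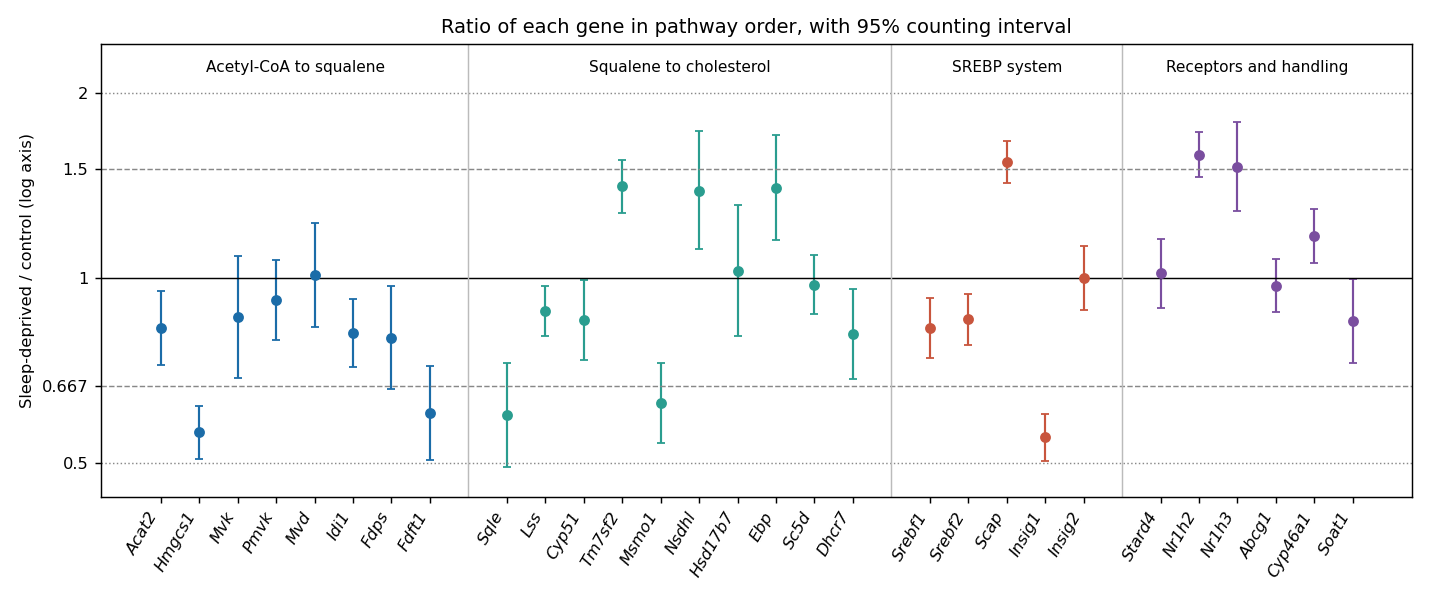
Ratio of the sleep-deprived over the control library for each gene in pathway order, on a log axis. Bars are exact 95% counting intervals, dashed lines mark 1.5-fold and dotted lines 2-fold, and 5 genes lie below the lower dashed line while Scap, Nr1h2 and Nr1h3 lie above the upper one.

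From squalene to cholesterol the enzymes had ratios on both sides of 1. Of the 10, the interval lay below 1 for 5, beside 29.8% of measured genes, and above 1 for 3, beside 32.1%. The share above 1 thus lies near the background. The interval included 1 for the remaining 2, and the median log2 ratio was −0.11. Their summed level was 288 CPM in both control files and 280.2 and 279 CPM in the sleep-deprived files, a ratio of 0.969 (0.928 to 1.01). Sqle (ENSMUSG00000022351, chromosome 15, 59315077 to 59331192, plus strand) encodes squalene epoxidase, the first step that needs oxygen and a known control point of the pathway. Its level was 19.6 and 19.01 CPM in control and 11.9 and 11.2 CPM in sleep-deprived files. The files did not overlap between groups, at a ratio of 0.599 (0.491 to 0.727). Msmo1 (ENSMUSG00000031604, chromosome 8, 64718139 to 64733792, minus strand), the sterol methyl oxidase, was measured at 32.6 and 32.3 CPM in control and at 20.3 CPM in both sleep-deprived files. The ratio of Msmo1 was 0.626 (0.539 to 0.726), and it was 0.713 with protein coding transcripts alone and 0.677 in TPM, both short of 1.5-fold. The TPM value leaves in the shift of all measured genes.

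Cyp51, the lanosterol demethylase, and Dhcr7, the reductase at the end of one branch of the pathway, were also below 1. Cyp51 was at 26.4 and 26.6 CPM in control against 22.7 and 22.5 CPM, a ratio of 0.852 (0.733 to 0.990). Dhcr7 was at 21.7 and 21.5 CPM against 17.8 and 17.2 CPM, a ratio of 0.809 (0.683 to 0.958). In TPM the ratio of Dhcr7 was 0.981. Sc5d, the sterol desaturase, had a ratio of 0.974 (0.872 to 1.09) and Hsd17b7, a ketosteroid reductase, one of 1.03 (0.803 to 1.31), so in CPM neither was separable from 1 at this depth. With the length offset the ratio of Sc5d was 0.788, below its interval in CPM.

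3 of the middle steps had intervals above 1. Tm7sf2, a sterol reductase, stood at 47.0 and 46.7 CPM in control and at 65.8 and 66.2 CPM in sleep-deprived files, a ratio of 1.41 (1.28 to 1.56). Ebp, the sterol isomerase, stood at 12.2 CPM in both control files and at 16.8 and 17.3 CPM in sleep-deprived files, a ratio of 1.40 (1.15 to 1.70). Nsdhl, which removes a carboxyl group during demethylation, was measured at 9.64 and 9.80 CPM against 13.46 and 13.6 CPM, a ratio of 1.39 (1.11 to 1.73). For each of the 3 genes both sleep-deprived files lay above both control files. With protein coding transcripts alone the ratio of Ebp was 2.04, the only case in which a member passed 2-fold under any setting. The files of a group disagreed on those reads, with 53.7 and 39.7 in control and 70.6 and 104.8 in sleep-deprived. Tm7sf2 shares 12.4% of its stretches with other genes, more with its neighbour Vps51 on the same strand than with any other. Vps51 went from 48.4 to 73.0 CPM, a ratio of 1.51 (1.37 to 1.66).

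Lss, lanosterol synthase, closes squalene epoxide into the first sterol, and its direction depended on how its transcripts were counted. Summed over transcripts it was at 65.5 and 65.8 CPM in control and 58.0 and 57.7 CPM in sleep-deprived files, a ratio of 0.882 (0.803 to 0.969). The ratio was 1.35 with an offset for transcript length and 1.55 in TPM. Its coding transcripts held at most 3 reads in a file, too few for a ratio of their own. Nearly all of its reads, 99.9% in control and 99.7% in sleep-deprived, were assigned to transcripts annotated as retaining an intron. The coding transcript Lss-201 was given 0 reads in all 4 files, although 4662 of its 4667 bases also lie in the retained-intron transcript Lss-204. Lss-204 held 789 reads in each control file and 565 and 568 in the sleep-deprived files, and Lss-207 held 175 and 178 against 206 in each of the others. The share of Lss-204 was thus lower in the sleep-deprived library and that of Lss-207 higher, at 79.5% to 69.5% and 17.8% to 25.2%. No direction can be given for Lss, although the counts and sums of enzymes above include it by its CPM ratio.

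Among the genes of the SREBP system, Insig1 was lower and Scap higher, while the remaining 3 differed by less than 1.5-fold. Insig1 (ENSMUSG00000045294, chromosome 5, 28071363 to 28078662, plus strand), the sterol-regulated retention protein, had the lowest ratio of all 29 genes in CPM. It was at 100.7 and 101.2 CPM in control and 55.2 and 55.7 CPM in sleep-deprived files. The groups did not overlap, at a ratio of 0.549 (0.503 to 0.599) and a log2 ratio of −0.86. With an offset for transcript length the ratio of Insig1 was 0.631. In TPM it was 0.729, short of 1.5-fold with the shift of all measured genes left in. Under both, Sqle, Msmo1 and Fdft1 were lower than Insig1. The paralogue of Insig1, Insig2, which also retains SCAP, was at 38.2 and 38.6 CPM in control and 38.2 and 38.4 CPM in sleep-deprived files. The files of Insig2 overlapped between groups, with a ratio of 0.998 (0.886 to 1.12). With the length offset the ratio of Insig2 was 1.14.

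Scap (ENSMUSG00000032485, chromosome 9, 110333288 to 110384950, plus strand), the escort of SREBP, was at 73.4 and 73.6 CPM in control and at 114 and 113 CPM in sleep-deprived files. Both sleep-deprived files lay above control, at a ratio of 1.54 (1.43 to 1.67), which became 1.48 when scaled by library totals. Exons of Scap overlap 5830462I19Rik on the opposite strand over 13.2% of their length. Srebf2, the main regulator of cholesterol genes, was at 65.1 and 65.5 CPM against 55.2 and 56.7 CPM, a ratio of 0.855 (0.778 to 0.940). Srebf1, better known for fatty acid genes, was at 47.7 and 47.6 CPM against 39.2 and 39.8 CPM, a ratio of 0.829 (0.741 to 0.928). In CPM, Srebf2 and Srebf1 were thus lower in both sleep-deprived files by a similar ratio. The ratio of Srebf2 was 0.972 with protein coding transcripts alone. With the length offset it was 0.739, against 0.819 for Srebf1. Fewer cells of a type and less RNA per cell cannot be told apart in these bulk pulldowns.

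The transcripts of Srebf1 did not move together. Srebf1-201 and Srebf1-203 start 13.4 kb apart and share 16 identical exons, of 19 and 18. Srebf1-201 held 29.3% of the gene's reads in control (26.002% to 32.8%, exact binomial) and 47.5% in sleep-deprived (43.4% to 51.8%). Srebf1-203 held 56.9% and 37.9%. In CPM, Srebf1-201 had a ratio of 1.35 (1.12 to 1.62) and Srebf1-203 one of 0.552 (0.465 to 0.653), so the lower total of the gene came with opposite directions of its 2 main transcripts. These are model-based splits of reads that the transcripts share, and the intervals do not cover that uncertainty.

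Of the receptors, Nr1h2 and Nr1h3 were both higher. Nr1h2 (ENSMUSG00000060601, chromosome 7, 44549616 to 44553951, minus strand), the liver X receptor found in most cells, was at 61.0 and 61.4 CPM in control and 96.9 and 97.3 CPM in sleep-deprived files. The files did not overlap between groups, at a ratio of 1.59 (1.46 to 1.72). The ratio of Nr1h2 was 1.43 with an offset for transcript length and 1.33 with protein coding transcripts alone, both short of 1.5-fold. Nr1h3 (ENSMUSG00000002108, chromosome 2, 91184061 to 91202834, minus strand), the form abundant in macrophages, was at 16.1 CPM in both control files and 24.1 and 24.8 CPM in sleep-deprived files. Its ratio was 1.52 (1.28 to 1.79), close to the limit: it was 1.495 without the second sleep-deprived file, 1.45 by library totals and 1.47 with the length offset.

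The handling genes differed less. Cyp46a1, which hydroxylates cholesterol so that it can leave the brain and is expressed mainly by neurons, was at 48.3 and 47.8 CPM in control and 56.2 and 56.0 CPM in sleep-deprived files, a ratio of 1.17 (1.05 to 1.29). Soat1, which stores cholesterol as ester, was at 24.3 and 24.2 CPM against 20.5 and 20.7 CPM, a ratio of 0.850 (0.726 to 0.994). For Cyp46a1 the sleep-deprived files were the higher ones and for Soat1 the control files were. The exporter Abcg1, a target of the liver X receptors, had a ratio of 0.971 (0.880 to 1.07), with 57.4 and 57.2 CPM in control. Stard4, a carrier of sterol between membranes, had one of 1.02 (0.892 to 1.16), with 31.8 and 31.7 CPM in control. The intervals of Abcg1 and Stard4 include 1 and leave out 1.5-fold in either direction. Across all 29 genes, 27 had files that did not overlap between groups, but so did 96.2% of measured genes.

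Levels between genes can be compared in TPM, which is scaled by transcript length. In the control library Nr1h2 was the highest of the 29 at 112 TPM, followed by Insig1 at 76.0, Tm7sf2 at 67.7 and Cyp46a1 at 53.2 TPM. Hsd17b7 at 3.62 TPM and Soat1 at 5.09 TPM were the lowest. In the sleep-deprived library Nr1h2 stood at 181 TPM, Tm7sf2 at 114 TPM, Cyp46a1 at 75.5 TPM and Scap at 62.9 TPM, and Insig1 at 55.5 TPM was no longer among the first 4. TPM also depends on which transcripts the reads were given to, which matters for Tm7sf2 and Nr1h2.

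Transcript shares differed between the libraries in several members. In Hmgcs1 the share of Hmgcs1-201 was 70.4% in control and 92.4% in sleep-deprived, and that of Hmgcs1-202 was 28.96% and 5.23%. The files of a group did not agree on Hmgcs1-202, with 396 and 266 reads in the control files but 0 and 62.5 in the others. In Nr1h2 the coding transcript Nr1h2-204 held 42.3% and 3.72% and Nr1h2-201, whose start lies 263 bases away, held 0% and 20.5%. The retained-intron transcript Nr1h2-205 held 11.6% of reads in control and 27.2% in sleep-deprived, and the coding Nr1h2-216 held 25.2% and 17.6%. In Nr1h3, Nr1h3-201 went from 46.8% to 0% and Nr1h3-204 from 3.59% to 42.6%, while the retained-intron transcript Nr1h3-208 held 33.1% and 34.6%. In Msmo1 the processed transcript Msmo1-206 held 52.1% and 40.8% and the coding Msmo1-201 held 31.9% and 35.4%. The coding Ebp-201 held 25.3% and 36.5%, and the retained-intron Ebp-202 held 69.99% and 60.3%. The files of a group did not agree on Ebp-201, at 29.02% and 21.6% in control and 29.8% and 42.96% in sleep-deprived. In Tm7sf2 the shares were close between the libraries, at 38.9% and 38.6% for the coding Tm7sf2-201 and 31.6% and 29.7% for the retained-intron Tm7sf2-215. As means of the files they were also close for the coding pairs of Acat2 (Acat2-201 at 48.5% and 50.2%, Acat2-204 at 49.96% and 48.6%) and, less so, of Pmvk (Pmvk-201 at 41.8% and 35.8%, Pmvk-203 at 58.2% and 55.3%). Single files disagreed, with Acat2-201 at 51.1% and 45.9% in control and 42.1% and 58.1% in sleep-deprived. Pmvk-203 was at 61.5% and 48.8% in the sleep-deprived files. In 19 other members 1 coding transcript held between 78.1% and all of the reads, Dhcr7-202 in Dhcr7, Soat1-207 in Soat1 and the transcript numbered 201 in the rest. A share of 0% here is the model's allocation and sets no limit on the transcript itself.

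**Figure D3:**
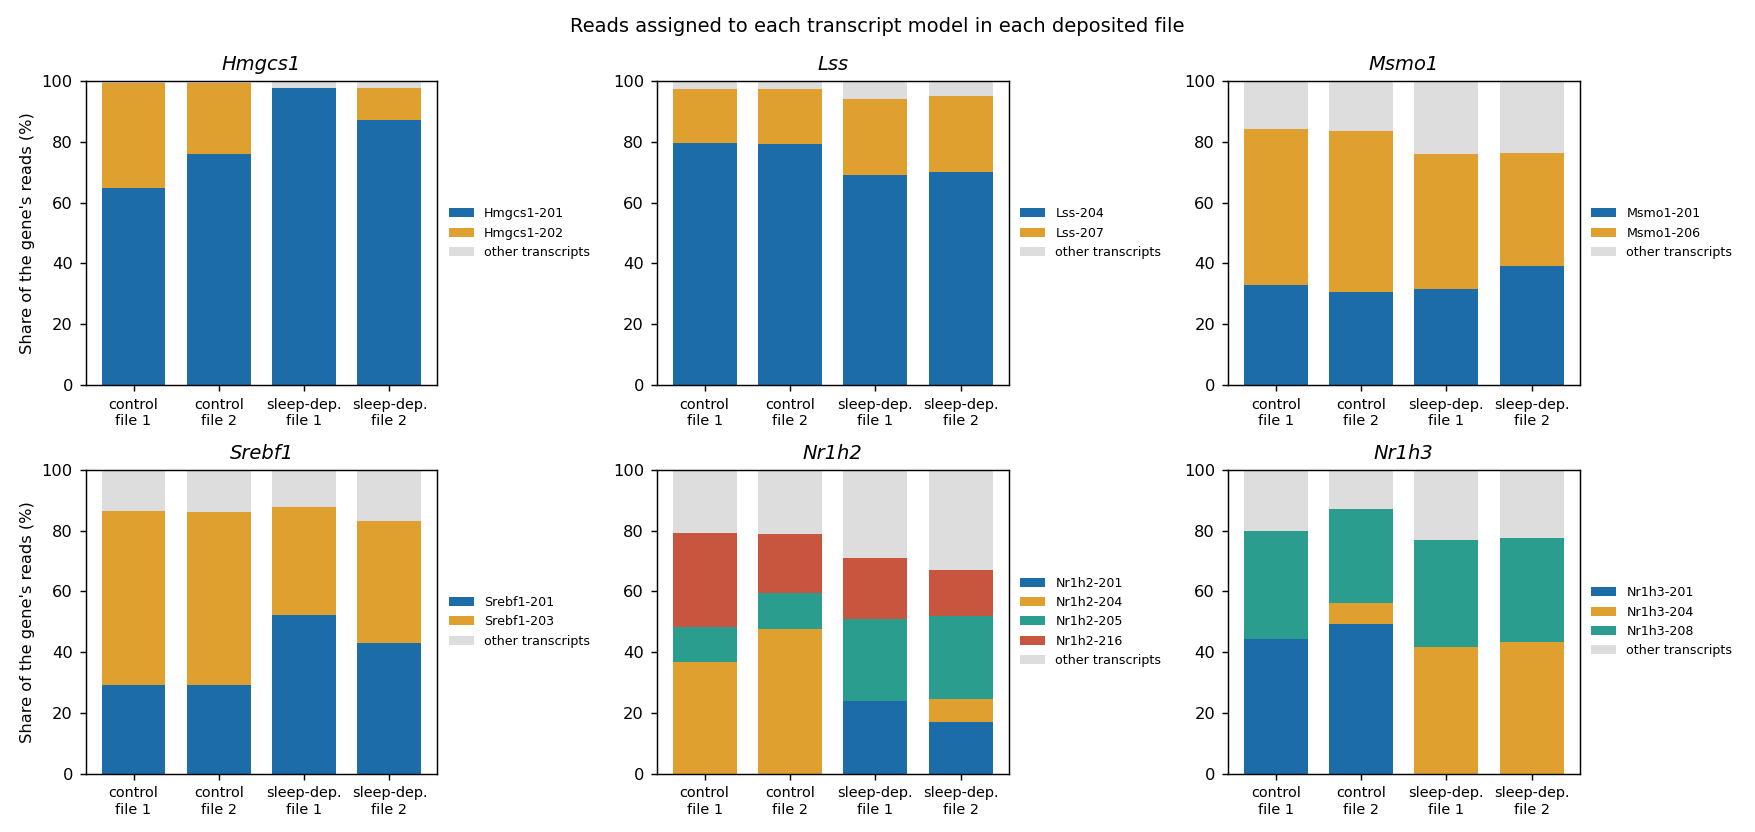
Share of each gene's reads given to each named transcript, in percent, in the 4 deposited files for Hmgcs1, Lss, Msmo1, Srebf1, Nr1h2 and Nr1h3, with the remaining transcripts in grey. The shares of Srebf1-201 and Srebf1-203 change order between the libraries, and the files of a group differ visibly for Hmgcs1 and Nr1h2.

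Reads on transcripts that retain an intron made up 10.6% of all matched reads in control and 13.3% in sleep-deprived. Over the 29 members the shares were 13.4% and 16.3%, and over the 18 enzymes 19.4% and 23.8%. Without Lss the remaining 17 enzymes were at 7.87% and 12.7%. Of 23 members with such a transcript, the share was higher in the sleep-deprived library for 14 and lower for 8. It was higher in Nr1h2 (25.95% to 38.6%), Tm7sf2 (35.7% to 42.4%), Msmo1 (15.8% to 23.3%) and Mvk (6.23% to 14.9%), and lower in Srebf2 (20.7% to 11.2%) and Ebp (74.7% to 63.5%). For Ebp the files of a group disagreed on the share of such transcripts. Such transcripts are not annotated as coding, so a gene total that includes them counts more than the coding message. Whether this share has a part in the ratios was not tested.

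Other genes around the pathway were read in 4 lists of genes. The 15 partners that process or degrade SREBP and INSIG had a median log2 ratio of −0.06 and none reached 2-fold, where 4.37% of measured genes were called higher and 5.54% lower. By mean CPM over both libraries, which is not corrected for length, the first of them were the protease gene Mbtps1, which makes the first cut in SREBP, at 203 and 183 CPM and a ratio of 0.898 (0.852 to 0.947), and the ubiquitin ligase subunit Fbxw7 with a ratio of 0.958. Among 11 measured genes of the isoprenoid branches, which draw on the same intermediates, none reached 2-fold either and the median log2 ratio was −0.11. Icmt, which methylates prenylated proteins, had a ratio of 1.07 and Fnta, a shared subunit of protein prenyltransferases, one of 0.834. In TPM, Mbtps1 was at 1.07 and Fnta at 1.03.

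Fatty acid synthesis, the other arm under SREBP, had a median log2 ratio of 0.11 over 17 genes. At 2-fold 2 were called higher and 1 lower, beside 4.37% and 5.54% of measured genes. Pnpla3, a lipid droplet protein, went from 9.13 to 32.5 CPM, a ratio of 3.56 (2.94 to 4.34). Mlxipl, a carbohydrate-responsive transcription factor, went from 2.45 to 6.10 CPM, a ratio of 2.49 (1.68 to 3.77) that was 1.67 with protein coding transcripts alone. Me1, which supplies NADPH, had 44.8 CPM in control and 20.7 CPM in sleep-deprived, for a ratio of 0.462 (0.402 to 0.531), or 0.536 in TPM. By mean CPM over both libraries, which is not corrected for length, the first genes of this list were the desaturase gene Scd2, with a ratio of 0.683 (0.657 to 0.710), and Fasn, with a ratio of 1.01.

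Among 27 measured genes of sterol uptake, transport and turnover, 1 was called higher, beside 4.37% of measured genes, and none lower, beside 5.54%. Their median log2 ratio was 0.19. The gene called higher, the lipid transporter Abca7, went from 102 to 272 CPM, a ratio of 2.66 (2.51 to 2.82). The lipoprotein receptor Lrp1 stood at 996 and 1961 CPM, a ratio of 1.97 (1.93 to 2.01), which was 1.40 with the length offset. Abca2, a transporter abundant in myelin-forming cells, had a ratio of 1.14, or 0.906 with the length offset.

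Some markers of cell types differed between the libraries as well. Beside the counts called here, 4.37% of measured genes were called higher and 5.54% lower. The 20 microglial markers summed to 246 CPM in both control files and to 828 and 827 CPM in the sleep-deprived files, a ratio of 3.37 (3.24 to 3.49), and 16 of 20 were called higher. P2ry12, the gene behind the Cre promoter, had 11.97 CPM in control and 23.3 CPM in sleep-deprived, against 1406 and 1052 CPM of the neuronal gene Snap25, so neuronal message was abundant in both pulldowns. The 12 astrocyte markers summed to 2490 and 1609 CPM (ratio 0.646) and the 12 oligodendrocyte markers to 3592 and 2264 CPM (ratio 0.630), with 3 of 12 called lower in each list. Oligodendrocyte precursor markers were at a summed ratio of 0.838 (2 of 8 lower), neuronal markers at 0.873 (0 of 14) and endothelial and mural markers at 0.822 (2 of 12 lower). No marker was at 0 reads in either library. In CPM every marker sum but the microglial one had a ratio below 1. In TPM the neuronal sum went from 2970 to 2990 and the endothelial and mural sum from 192 to 199. The astrocyte, oligodendrocyte and precursor sums were lower in TPM too. Single markers within the lists below 1 in CPM went the other way, such as the oligodendrocyte marker Mag at 1.47 and the neuronal marker Slc17a7 at 1.71. The part of these marker differences in the ratios of the members was not tested.

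**Figure D4:**
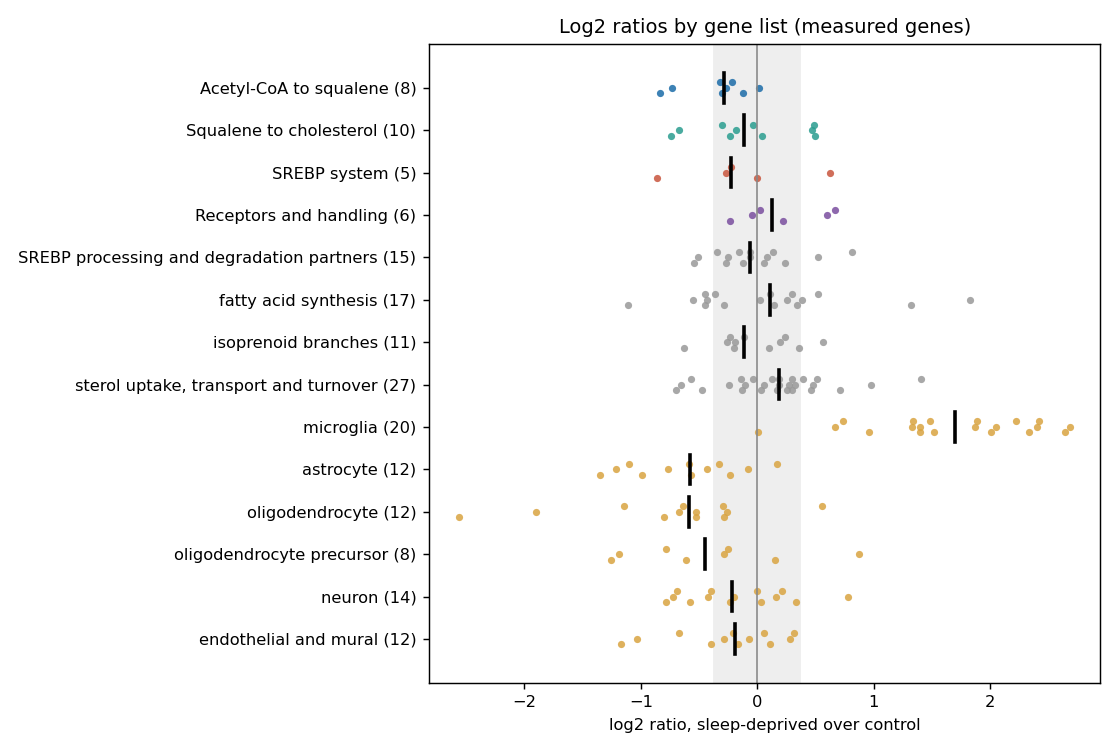
Log2 ratio of each measured gene by list, with points for genes, black bars for list medians and a grey band for the quartiles of all measured genes (−0.37 and 0.36). The medians of the 4 member lists, at −0.28, −0.11, −0.23 and 0.12, lie inside the band, while those of the microglial (1.70), astrocyte (−0.58), oligodendrocyte (−0.59) and oligodendrocyte precursor (−0.45) markers lie outside it.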

How the data were processed

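RNA from 4 RiboTag pulldowns of mouse hippocampus was analysed from the deposited transcript tables. Per the file headers, each holds estimated counts and TPM for 116546 transcripts; both are the authors' values, and the submitters' processing notes name Salmon, DESeq2 and mm10. Their versions, the annotation and strand use were not stated there. Deposited TPM was used for levels between genes and as an alternative.

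Transcripts were matched by identifier to GENCODE mouse release 21 on GRCm38 (115898 matched, 99.4%), and the deposited estimated counts were summed per gene and rounded. The unmatched share of reads was at most 0.366% of a file. The files of a group agreed below sampling noise, so their mean was 1 library. The planned edgeR quasi-likelihood test was therefore replaced by a rule of size: TMM-scaled CPM (edgeR 4.0.16, R 4.3.3), filterByExpr with a minimum count of 10, a ratio of at least 2-fold, and an exact conditional 95% interval that excludes 1. A library under 3 reads was set to 3 for a fold. The rule was tested on simulated data. Sequenced reads are not independent molecules, so intervals cover counting error only. Depth was 14431647 to 14877011 reads a file.

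All 29 members are named. From the 4 pathway lists, called genes and the 2 with the highest mean CPM are named, and transcripts are named where one holds at least 20% of a gene's reads in a library. Members and lists were chosen with earlier results of these data known. Scaling, low-count filters, transcript length, coding transcripts, TPM, the fold and each file were varied. Promoters for 5 members, protein sequences, and pathway genes outside the list were not analysed here.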

Additional observations from a re-analysis of the deposited data

How the results depend on the processing

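No paired analysis was possible because the 2 files of a group count as 1 library. For the same reason the edgeR quasi-likelihood test, the DESeq2 Wald test and the replicate block were not run. The members whose interval excluded 1 kept their direction under DESeq2 size factors, upper-quartile factors, library totals, TMM without mitochondrial and ribosomal protein genes, TMM on measured genes, and when any of the 4 files was left out. Of those whose interval included 1, Mvd, Hsd17b7 and Stard4 were at 0.967, 0.983 and 0.974 by library totals, and Mvd was at 0.995 without the second control file and 0.987 without the second sleep-deprived file. The TMM on measured genes, the 1.5-fold counts and the ratios of genes outside the 29 were added after seeing the data.

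The number of members called at 2-fold, 0 in the report, was 1 with protein coding transcripts only (Ebp, ratio 2.04), and the looser rule of 1.5-fold gave 8. Members at least 1.5-fold higher numbered 1 by library totals (Nr1h2), 1 with the transcript length offset (Scap) and 7 by the authors' TPM (Ebp, Lss, Nr1h2, Nr1h3, Nsdhl, Scap and Tm7sf2). Those at least 1.5-fold lower numbered 1 by TPM (Sqle). Both TPM counts leave in the shift of all measured genes, so they cannot be read as calls lost or gained against the CPM counts. Under protein coding transcripts 4 of the 5 lower genes remained, all but Msmo1, and the same 5 remained under each other setting that keeps counts. By TPM the median of all measured genes shifted by 0.21 in log2. The enzyme median was −0.019 there, or −0.23 relative to that shift. The summed enzyme ratio was 0.829 by library totals, 0.927 with the length offset and 1.11 by TPM. By TPM it thus passed 1, with the shift of all measured genes not taken out.

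Among genes whose interval excluded 1, these reversed. Lss was 1.35 with the length offset and 1.55 by TPM, and its coding transcripts had too few reads for a ratio. By TPM, Idi1 was 1.004, Fnta 1.03 and Mbtps1 1.07, each above 1 but below the median TPM ratio of all measured genes. Abca2 was 0.906 with the length offset. Of genes whose interval included 1, by TPM Pmvk was 1.10, Abcg1 1.09, Insig2 1.33 and Fbxw7 1.11, and with the length offset Insig2 was 1.14, Stard4 0.947 and Fasn 0.914. The length offset and TPM weigh reads by the transcripts they were given to, and the cause of each reversal was not tested.

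Leaving out 1 file gave an enzyme median of −0.23 to −0.22, a median of −0.01 to −0.0004 for the other 11 genes and a summed enzyme ratio of 0.862 to 0.866. Members called stayed between 0 and 0, those 1.5-fold lower between 5 and 5, and those 1.5-fold higher between 2 and 3, without Nr1h3 when the second sleep-deprived file was left out. Members had 133 to 1598 reads a library, which sets the width of their intervals, and with 1 library per group no spread between mice is known.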
